A study of Mus musculus with 19 samples.

Results

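The BAFF, APRIL and CD40 survival axis was followed in spleen RNA as 7 genes of the 27179 in the expression table, selected by symbol: the ligand genes Tnfsf13b and Tnfsf13, the receptor genes Tnfrsf13b, Tnfrsf13c, Tnfrsf17 and Cd40, and the adaptor gene Traf3. All 7 passed the filter on low values, an RPKM (reads scaled to gene length and library size) of at least 0.5 in at least 4 mice, as did 14186 genes in all. RNA-seq was performed on splenocytes of 19 mice of the FCG model, in which sex chromosomes and gonads vary apart from each other. The groups were XX mice with ovaries (XXF, n = 5), XY mice with ovaries (XYF, n = 4), XX mice with testes (XXM, n = 5) and XY mice with testes (XYM, n = 5). Every mouse had been immunized with heat-killed Streptococcus pneumoniae (HKSP), and spleens were taken 7 days later, so that no unimmunized mice stand beside them.

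In FCG mice the Y chromosome, where present, lacks Sry, and testes form where an autosome carries a Sry transgene. The mothers in the colony were of the strain C57BL/6J. Mice with testes therefore carry the transgene and mice with ovaries do not, whatever their sex chromosomes. The age of the mice is not given in the labels. The samples were whole splenocyte suspensions after lysis of red cells, not sorted B cells. The library sizes behind the values lay between 11263753 and 19962022 reads.

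BAFF (encoded by Tnfsf13b) and APRIL (Tnfsf13) are TNF family cytokines made largely by myeloid cells, and they keep B cells and plasma cells alive. BAFF binds BAFF-R (Tnfrsf13c), the main survival receptor of mature B cells, and both cytokines bind TACI (Tnfrsf13b) and BCMA (Tnfrsf17), the latter a receptor of plasma cells. CD40 on B cells receives the CD40 ligand (Cd40lg) of helper T cells, and TRAF3 holds the non-canonical NF-kB pathway in check until BAFF-R or CD40 is engaged.

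B cell, T cell, plasma cell, myeloid, neutrophil, dendritic cell and NK cell markers were all present: each listed gene passed the filter (10 of 10, 8 of 8, 8 of 8, 9 of 9, 9 of 9, 6 of 6 and 6 of 6). Of 8 stromal markers 1 passed, Cxcl13 with a mean RPKM of 0.42, and Ccl21a was at 0 in every mouse, so the samples held the cells of a spleen suspension with little stroma. Of 8 erythroid markers 7 were in the table and all of these passed. The most abundant markers were Cd79b for B cells (mean RPKM 865), Jchain for plasma cells (957), Trac for T cells (215), Lyz2 for myeloid cells (1140), S100a9 for neutrophils (4980), Itgax for dendritic cells (18.1), Gzma for NK cells (201) and Hbb-bs for erythroid cells (10100).

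The mice XYF F9 and XYM 9 stood apart from the others. The RPKM of 9 neutrophil markers summed to 56900 in XYF F9 and 58800 in XYM 9, and to between 3230 and 16800 in the other 17 mice. The same mice had the lowest sums of the 6 NK cell markers, 83.1 and 60.3, against 146 to 522 elsewhere, and the highest sums of the 9 myeloid markers, 3790 and 3660. B cell marker sums were lowest in XYF F9 (1480) and XYF F6 (1730). Results that rest on XYF F9 and XYM 9 are given below with and without them, an alternative chosen after seeing the data.

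Tnfsf13b (Entrez Gene 24099, chr8:10006229-10036000 of GRCm38) encodes BAFF. Its level was low in every group, with 29 to 401 reads in a mouse. The RPKM was 1.198, 1.105, 1.532, 1.929 and 1.234 in XXF mice F1 to F5, and 2.04, 3.15, 2.39 and 7.54 in XYF mice F6 to F9. In males it was 1.41, 1.28, 2.30, 1.85 and 1.82 in XXM mice 2, 5, 6, 7 and 8, and 12.4, 1.74, 3.01, 1.82 and 1.98 in XYM mice 9, 12, 13, 15 and 16. All 4 XYF mice lay above all 5 XXF mice, whereas XXM and XYM mice overlapped, and XYF F9 and XYM 9 held the 2 highest values.

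The log2 difference in Tnfsf13b between XXF and XYF mice, on the log2(RPKM + 1) scale used for all differences here, was -0.88 (SE 0.373, 95% interval -1.66 to -0.09). It was not called: the Benjamini-Hochberg adjusted p from limma was 0.227 (two-sided exact permutation p = 0.00794, which no split of these mice could undercut). Between XXM and XYM mice the difference was -0.62 (SE 0.351, adjusted p = 0.254, exact permutation p = 0.135). Over both gonadal sexes XX mice lay lower than XY mice by a log2 difference of -0.75 (SE 0.256, adjusted p = 0.11, exact permutation p = 0.00126). Without XYF F9 and XYM 9 these differences shrank to -0.55, -0.20 and -0.37, the last with an adjusted p of 0.0991, which is past the threshold while its size is under 1.5-fold. The average over both gonadal sexes was called without XYF F7 (-0.76, adjusted p = 0.0876) or XYM 15 (-0.82, adjusted p = 0.0667), and the difference in females was called without XYM 9 (adjusted p = 0.056). Neutrophil markers divided the females in the same way, with sums of 3920 to 5410 in XXF and 8090 to 56900 in XYF mice, against 4500 to 7580 in XXM and 3230 to 58800 in XYM mice. Their median log2 difference of XXF from XYF was -1.87 (0.062 over all genes), and 3 of 9 were called lower, though only without XYF F9 and XYM 9, where 0.895% of all genes were called. The part of neutrophil content in the Tnfsf13b differences was not tested. NK cell markers went the other way, with 5 of 6 called higher in the XXF group, against 1.38% of all genes (95 higher and 101 lower). Shares of all genes called count both directions throughout.

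Short motifs were looked for on both strands of RefSeq promoter windows (250 bases before to 50 after a transcription start, GRCm38.p6), which held 6 of the 7 members: the interferon response element (GAAA, any 2 bases, GAAA), the EBF1 palindrome (TCCC, any 2 bases, GGGA) and the kappaB element. They occur in 3.44%, 0.904% and 8.46% of 32851 windows. These stretches of 30 bases, all on the plus strand, are shown because they hold the matches found among the members, in capitals.
Tnfsf13b, chr8:10006607-10006636: tacaaaaactGAAAGTGAAAtgcggaaggc
Tnfrsf17, chr16:11313698-11313727: aaataggtggTTTCTGTTTCaggaatagtt
Traf3, chr12:111166350-111166379: ggcggcccgcGGGGATTTCCagcgcgcgag
The matches in Tnfsf13b and Tnfrsf17 are to the interferon response element and that in Traf3 is to the kappaB element. A match is a string of letters and was not tested for binding.

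Tnfsf13 (Entrez Gene 69583, chr11:69682577-69685554) encodes APRIL and had 11 to 69 reads in a mouse. The read-through gene Tnfsfm13 covers 60% of its exon bases on the same strand and Tnfsf13os 13.5% on the opposite strand, and the strand setting and the handling of reads in shared exons are unknown here, so its level is uncertain. Tnfsfm13 itself was low, with a highest RPKM of 0.295.

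The RPKM of Tnfsf13 was 1.498, 1.427, 1.143, 1.849 and 1.620 in XXF mice F1 to F5, and 0.74, 2.39, 1.19 and 1.94 in XYF mice F6 to F9. It was 0.54, 0.998, 0.44, 1.36 and 1.12 in XXM mice 2, 5, 6, 7 and 8, and 1.38, 0.49, 0.93, 0.86 and 0.49 in XYM mice 9, 12, 13, 15 and 16. Females tended to hold the higher values, with overlap between every pair of groups. Averaged over both sex chromosome complements, the log2 difference of males from females was -0.44 (SE 0.132, adjusted p = 0.0195 from limma). That is past the adjusted p threshold but under 1.5-fold, and so was not called. The fold depended on the pseudocount: with 0.5 in place of 1 the difference was -0.59, and with limma-voom on recovered reads -0.87 (adjusted p = 0.0177), both called. Between XYM and XYF mice the difference of -0.46 (adjusted p = 0.0748) was likewise under 1.5-fold, and was called without XYF F6 (-0.64, adjusted p = 0.039), with a pseudocount of 0.5 (-0.61) or 0.1 (-0.81), and with limma-voom (-0.92). Between XX and XY mice the differences were 0.01 in females and 0.05 in males (adjusted p = 0.987 and 0.883), the former with the opposite sign under median ratio rescaling (-0.03682). Of 9 myeloid markers, 2 were called lower in males over both complements, against 7.32% of all genes, with a median of -0.31 (0.0174 over all genes), and 2 in XYM against XYF mice, against 15.8%, with a median of -0.454.

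Cd40lg (Entrez Gene 21947, chrX:57212143-57224042), the T cell ligand of CD40 and a listed partner of the 7 genes, had an RPKM of 11.5, 10.2, 6.96, 10.1 and 11.8 in XXF mice F1 to F5. The other females, XYF F6 to F9, had 5.75, 5.12, 5.17 and 4.12. In XXM mice 2, 5, 6, 7 and 8 it was 4.09, 3.03, 2.28, 2.33 and 1.99, and in XYM mice 9, 12, 13, 15 and 16 it was 2.27, 4.68, 4.93, 6.22 and 5.34. Every XXF mouse lay above every mouse of the other groups, and every XXM mouse lay below every XYF mouse.

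Cd40lg was lower in XXM than in XXF mice (log2 difference -1.58, SE 0.194, adjusted p = 4.84e-05 from limma) and lower in males over both complements (-0.85, SE 0.141, adjusted p = 0.000466). In females it was higher with XX (0.87, SE 0.205, adjusted p = 0.0524), and in males the difference of XX from XY was -0.58 (SE 0.194, adjusted p = 0.0982), just under 1.5-fold and not called, though called without XYF F9 and XYM 9 (-0.77, adjusted p = 0.0187). The XX effect in females differed from that in males by 1.45 (SE 0.282, adjusted p = 0.0877). That last call was kept in 5 of the 19 fits that left out 1 mouse, where the adjusted p lay between 0.00677 and 0.232. It was lost with a pseudocount of 0.1 (adjusted p = 0.116), no filter (0.128), quantile normalization (0.11) and limma-voom (0.118). The call in females was lost without XXF F1, F4 or F5 (adjusted p = 0.112, 0.108 and 0.145) or XYF F6 or F9 (0.101 and 0.202). T cell markers and Cd40lg went together in some comparisons and apart in others. All 8 markers were called lower in XXM than in XXF mice, where Cd40lg was too, against 4.22% of all genes, and 7 of 8 in males over both complements (median -1.12), where Cd40lg was too, against 7.32%. Between XXM and XYM mice 3 of 8 were called lower, against 2.96%. In XYM against XYF mice 6 of 8 were called lower, against 15.8%, where the Cd40lg difference was -0.13 (adjusted p = 0.656). Between XXF and XYF mice, where Cd40lg was called, the 8 had a median log2 difference of 0.454 and were not called. For the difference between XX effects their median was 0.702 (0.0182 over all genes), and 4 of 8 were called, though only without XYF F9 and XYM 9, where 5.51% of all genes were called. The summed RPKM of the 8 was 1110 to 1570 in XXF, 552 to 1390 in XYF, 384 to 558 in XXM and 351 to 728 in XYM mice. In such bulk RNA, fewer cells of a type cannot be told from less RNA per cell, and the part of T cell content in the Cd40lg differences was not tested.

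**Figure D1:**
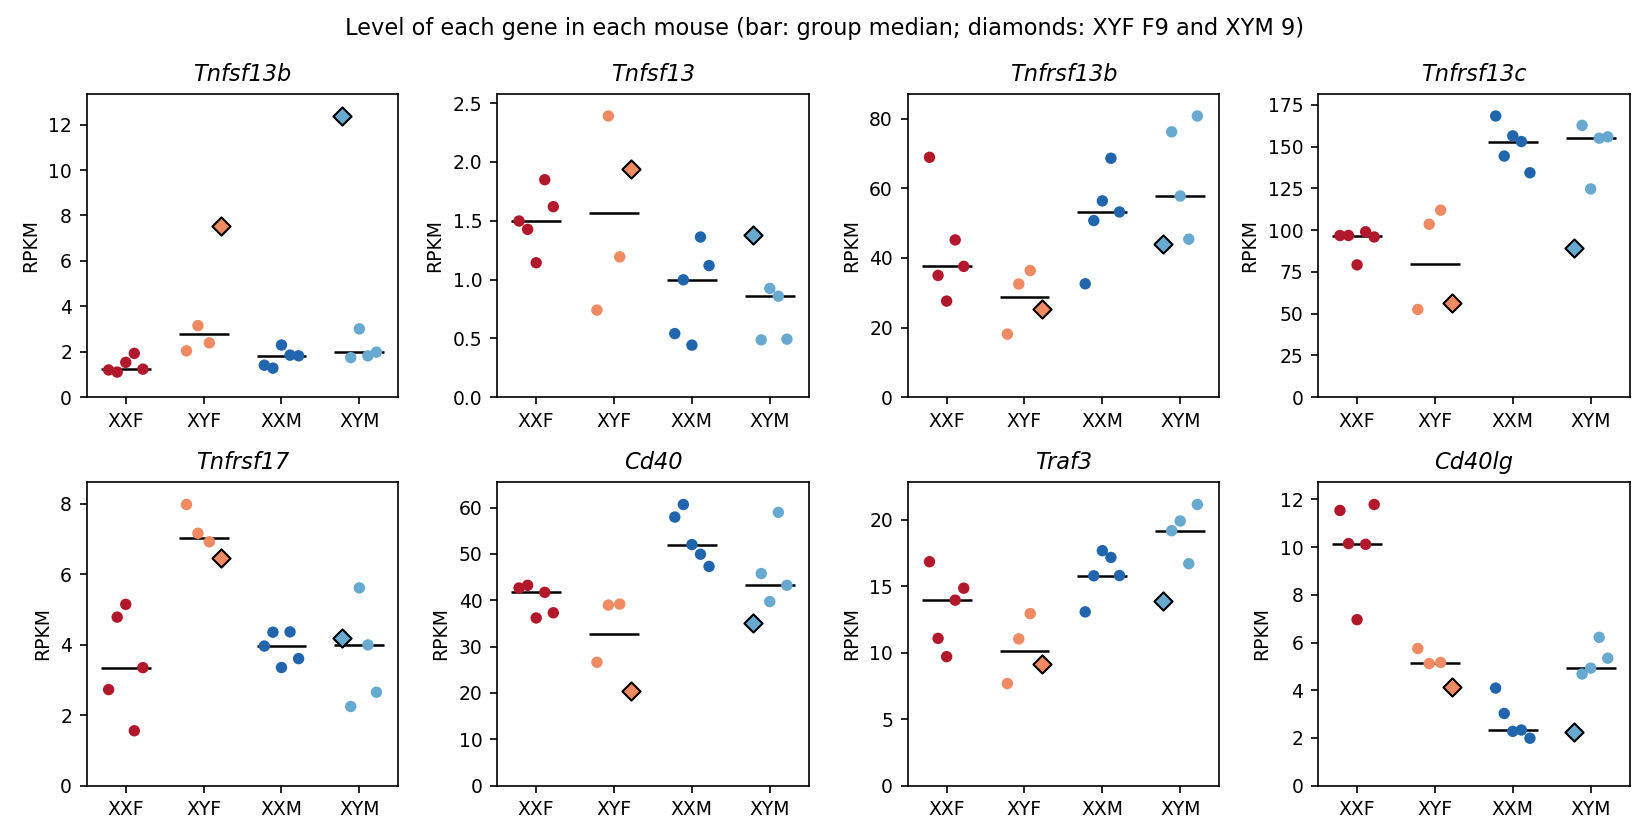
RPKM of the 7 members and of Cd40lg in each of the 19 mice by group, with each axis starting at 0, bars at group medians and diamonds for XYF F9 and XYM 9. Tnfsf13b reaches 7.54 and 12.4 in these 2 mice, Tnfrsf17 is highest in the 4 XYF mice, and Tnfrsf13c lies above 134 in all 5 XXM mice.

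Tnfrsf13c (Entrez Gene 72049, chr15:82221742-82224380) encodes BAFF-R and was the most abundant member per length, with a mean RPKM of 118 over 19 mice. The 250 bases before its start (chr15:82224381-82224630, minus strand, GRCm38.p6), printed because this receptor carried the clearest difference between males and females, hold none of the 3 motifs.
Tnfrsf13c: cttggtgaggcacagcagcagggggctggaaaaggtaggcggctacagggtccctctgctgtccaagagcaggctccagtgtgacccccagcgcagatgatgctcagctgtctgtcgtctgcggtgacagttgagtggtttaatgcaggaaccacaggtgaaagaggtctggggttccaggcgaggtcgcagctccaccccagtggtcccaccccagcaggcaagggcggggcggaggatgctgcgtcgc

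Its RPKM was 96.8, 96.9, 79.2, 99.1 and 96.0 in XXF mice F1 to F5, and 52.5, 103.6, 112.0 and 56.3 in XYF mice F6 to F9. In XXM mice 2, 5, 6, 7 and 8 it was 168.4, 144.4, 156.5, 153.1 and 134.4, and in XYM mice 9, 12, 13, 15 and 16 it was 89.6, 162.8, 124.7, 155.1 and 155.9. Every XXM mouse lay above every female, and XYM 9 was the only male within the range of the females. Tnfrsf13c was higher in males over both complements (log2 difference 0.75, SE 0.142, adjusted p = 0.0014 from limma, a 1.68-fold difference). It was higher in XXM than in XXF mice (0.69, SE 0.195, adjusted p = 0.0422) and in XYM than in XYF mice (0.80, SE 0.207, adjusted p = 0.011). These 3 calls held when any mouse was left out, and without XYF F9 and XYM 9 the differences were 0.75, 0.69 and 0.80. Between XX and XY mice the differences were 0.28 in females and 0.16 in males (adjusted p = 0.465 and 0.59).

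Tnfrsf13b (Entrez Gene 57916, chr11:61126283-61153170) encodes TACI. Its RPKM was 68.9, 35.0, 27.6, 45.2 and 37.6 in XXF mice F1 to F5, and 18.1, 32.5, 36.4 and 25.2 in XYF mice F6 to F9. In XXM mice 2, 5, 6, 7 and 8 it was 32.6, 50.7, 56.4, 68.6 and 53.2, and in XYM mice 9, 12, 13, 15 and 16 it was 43.9, 76.2, 57.8, 45.4 and 80.8. All 5 XYM mice lay above all 4 XYF mice, while XXF and XXM mice overlapped. Tnfrsf13b was higher in XYM than in XYF mice (log2 difference 1.09, SE 0.265, adjusted p = 0.00833 from limma, 2.13-fold) and in males over both complements (0.70, SE 0.182, adjusted p = 0.00972). Between XXM and XXF mice the difference of 0.31 was not called (adjusted p = 0.553). The XX effect in females (0.57) and in males (-0.21) differed by 0.78 (SE 0.365), which did not pass the threshold (adjusted p = 0.231).

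Tnfrsf17 (Entrez Gene 21935, chr16:11313232-11320074) encodes BCMA and was thinly covered, with 22 to 101 reads in a mouse. Its RPKM was 2.73, 4.78, 5.15, 1.56 and 3.35 in XXF mice F1 to F5, and 7.98, 7.16, 6.92 and 6.47 in XYF mice F6 to F9. In XXM mice 2, 5, 6, 7 and 8 it was 3.96, 4.36, 3.35, 4.37 and 3.61, and in XYM mice 9, 12, 13, 15 and 16 it was 4.199, 2.248, 5.614, 3.995 and 2.652. The 4 XYF mice lay above all of the other 15 mice, and the remaining groups overlapped. It was the only receptor of the axis with its highest level in XYF mice.

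Tnfrsf17 was lower in XXF than in XYF mice (log2 difference -0.92, SE 0.223, adjusted p = 0.06 from limma; two-sided exact permutation p = 0.0238) and lower in XYM than in XYF mice (-0.82, SE 0.223, adjusted p = 0.0139). The call in females was lost without XXF F1, F4 or F5 (adjusted p = 0.121, 0.125 and 0.131), without XYF F6 or F9 (0.164 and 0.158), without XYF F9 and XYM 9 together (0.11) and with the compared groups alone (0.18). The call between XYM and XYF mice held when any mouse was left out. In males the difference of XX from XY was 0.10 (SE 0.21, adjusted p = 0.778), and the XX effects in females and males differed by -1.01 (SE 0.307, adjusted p = 0.133). This difference was called without XXF F3 (-1.14, adjusted p = 0.0673), XYF F8 (-1.03, 0.099), XYM 9 (-1.06, 0.0622), XYM 15 (-1.04, 0.0945), or XYF F9 and XYM 9 (-1.10, 0.0964).

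Plasma cell markers were set beside Tnfrsf17. The 8 markers summed to an RPKM of 789 to 1650 in XXF, 1460 to 2030 in XYF, 1110 to 1530 in XXM and 1190 to 1830 in XYM mice. Of the 8, 1 was called lower in XXF than in XYF mice, against 1.38% of all genes, a call lost without XYF F9 and XYM 9. Their median log2 difference there was -0.362, against 0.062 over all genes. In XYM against XYF mice 1 of 8 was called higher, against 15.8%, with a median of 0.113 (0.0167 over all genes). Jchain, the joining chain of secreted IgM and IgA, was the gene most like Tnfrsf17 over the 19 mice (r = 0.87, and 0.881 on deviations from the group means). The part of plasma cell content in the Tnfrsf17 differences was not tested.

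Cd40 (Entrez Gene 21939, chr2:165055614-165071654) had an RPKM of 42.7, 43.2, 36.2, 41.7 and 37.3 in XXF mice F1 to F5, and 26.6, 39.0, 39.2 and 20.5 in XYF mice F6 to F9. In XXM mice 2, 5, 6, 7 and 8 it was 58.0, 60.7, 52.0, 49.9 and 47.3, and in XYM mice 9, 12, 13, 15 and 16 it was 35.2, 45.8, 39.7, 59.0 and 43.2. All 5 XXM mice lay above all 9 females, while XYM mice overlapped with both female groups. The log2 difference of males from females was 0.46 (SE 0.115, adjusted p = 0.00745 from limma), past the adjusted p threshold but under 1.5-fold. The same was true of XYM against XYF mice (0.52, SE 0.167, adjusted p = 0.0285, exact permutation p = 0.0635). This difference was called without XYF F7 (0.64), XYF F8 (0.64) or XYM 9 (0.60). XX mice had higher values than XY mice by 0.34 over both gonadal sexes (SE 0.115, adjusted p = 0.109), which was not called and was 0.21 without XYF F9 and XYM 9. Of 6 dendritic cell markers, 3 were called higher in males over both complements, against 7.32% of all genes. The summed RPKM of the 6 was 24.5 to 35.5 in XXF, 26.5 to 42.9 in XYF, 51.2 to 76.2 in XXM and 43.7 to 72.3 in XYM mice. The part of dendritic cell content in the Cd40 values was not tested.

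Traf3 (Entrez Gene 22031, chr12:111166321-111267155), the adaptor downstream of BAFF-R and CD40, had an RPKM of 16.8, 11.1, 9.70, 13.9 and 14.8 in XXF mice F1 to F5, and 7.68, 11.03, 12.93 and 9.18 in XYF mice F6 to F9. In XXM mice 2, 5, 6, 7 and 8 it was 13.1, 15.8, 17.7, 17.2 and 15.8, and in XYM mice 9, 12, 13, 15 and 16 it was 13.9, 19.2, 19.9, 16.7 and 21.1. Both male groups lay wholly above XYF mice and overlapped with XXF mice. Traf3 was higher in XYM than in XYF mice (log2 difference 0.78, SE 0.162, adjusted p = 0.00424 from limma, 1.72-fold), and this call held when any mouse was left out. Over both complements the difference of males from females was 0.52 (SE 0.111, adjusted p = 0.00304), under 1.5-fold. Between XX and XY mice the differences were 0.35 in females (adjusted p = 0.261) and -0.17 in males (adjusted p = 0.454), and their difference of 0.52 (adjusted p = 0.196) was called only without XXF F3 (0.62, adjusted p = 0.0955) or XYM 9 (0.61, adjusted p = 0.0872).

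Read across groups, the members followed different orders. Mean RPKM of Tnfrsf13c ran from XXM (151, SD 12.8, n = 5) through XYM (138, SD 30.6, n = 5) and XXF (93.6, SD 8.11, n = 5) to XYF mice (81.1, SD 31.0, n = 4), and Cd40 had the same order. For Tnfrsf13b and Traf3 the order was XYM, XXM, XXF, XYF. In both orders each group overlapped with the next. Tnfrsf17 ran from XYF (7.13, SD 0.634, n = 4) through XXM (3.93, SD 0.45, n = 5) and XYM (3.74, SD 1.34, n = 5) to XXF mice (3.51, SD 1.48, n = 5), with only the gap below XYF larger than the spread. Tnfsf13b ran from XYM (4.19, SD 4.61, n = 5) through XYF (3.78, SD 2.55, n = 4) and XXM (1.73, SD 0.403, n = 5) to XXF mice (1.4, SD 0.336, n = 5), the first of these set by XYM 9. Means of Tnfsf13 were 1.57 in XYF (SD 0.739, n = 4), 1.51 in XXF (SD 0.26, n = 5), 0.89 in XXM (SD 0.39, n = 5) and 0.83 in XYM mice (SD 0.367, n = 5), with overlap throughout.

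The counts of members called, that is with an adjusted p under 0.1 and a difference over 1.5-fold, were set against all 14186 genes. Between XXF and XYF mice 1 of 7 members was called, against 1.38% of all genes, and the median log2 difference was 0.281 for the members and 0.062 for all genes. At an unadjusted p under 0.05 there were 5 of 7 members and 18.7% of all genes. Between XXM and XYM mice limma called 0 of 7, against 2.96%, and limma-voom called 0 members and 2.81% of all genes. At an unadjusted p under 0.05 there were 0 members and 27.1% of all genes. Over both gonadal sexes limma called 0 of 7 between XX and XY mice, against 1.72%, and limma-voom 0 members and 2.76% of all genes. There 3 members and 22.8% of all genes had an unadjusted p under 0.05.

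Between XXM and XXF mice 1 of 7 was called, against 4.22% of all genes, and between XYM and XYF mice 4 of 7, against 15.8%. In the latter the median log2 difference was 0.523 for the members and 0.0167 for all genes. Over both complements 2 of 7 were called between males and females, against 7.32%, both higher in males, where 26.8% of all called genes were higher. The median log2 difference of the 7 members there was 0.463 and that of all genes 0.0174. With limma-voom 5 members and 20.6% of all genes were called between XYM and XYF mice, and 3 members and 12.1% of all genes between males and females. For the difference between the XX effects in females and in males limma called 0 of 7, against 0.0846%. With limma-voom 0 members and 0.0282% of all genes were called, and 3 members and 21% of all genes had an unadjusted p under 0.05. These comparisons share groups and so are not independent of each other.

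**Figure D2:**
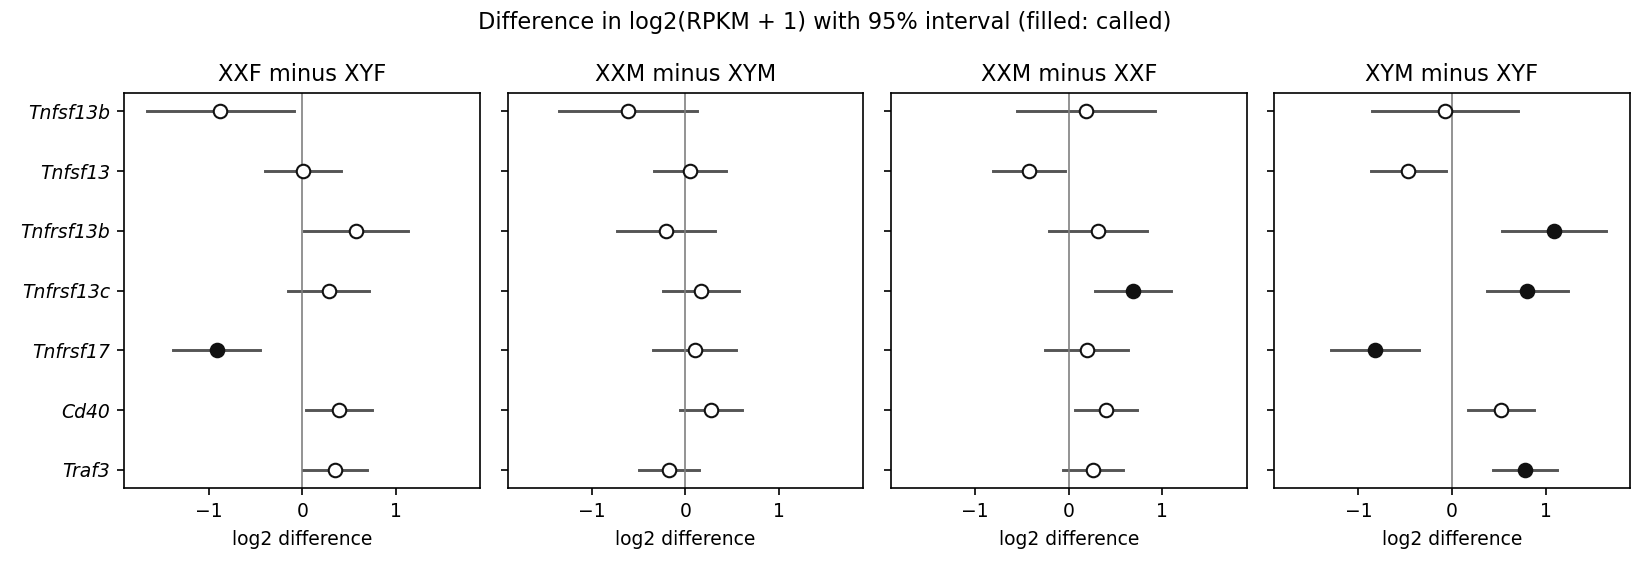
Log2 differences of the 7 members in log2(RPKM + 1) with 95% intervals from limma, for the 4 comparisons of 2 groups, filled where called. XYM minus XYF holds 4 filled points, Tnfrsf13b (1.09), Tnfrsf13c (0.80), Traf3 (0.78) and Tnfrsf17 (-0.82), and XXM minus XYM holds none.

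Ligands were also set beside receptors per length. Tnfsf13b amounted to a median of 1.29% of Tnfrsf13c in XXF, 3.46% in XYF, 1.21% in XXM and 1.27% in XYM mice, with 13.4% in XYF F9 and 13.8% in XYM 9. The 3 XYF mice other than F9 had 2.13% to 3.88%, above the highest XXF value of 1.95%. Tnfsf13 and Tnfsf13b together came to medians of 2.09%, 3.70%, 1.27% and 1.31% of the summed RPKM of the 3 receptors Tnfrsf13b, Tnfrsf13c and Tnfrsf17 in XXF, XYF, XXM and XYM mice. Tnfsf13 reached a median of 125% of Tnfsf13b in XXF mice and 43.1%, 61.4% and 28.0% in XYF, XXM and XYM mice. Cd40lg was 19.2% to 31.6% of Cd40 in XXF, 13.1% to 21.6% in XYF, 4.21% to 7.06% in XXM and 6.44% to 12.4% in XYM mice, so that XXF overlapped with XYF and XXM with XYM, and both female groups lay above both male groups. Against Tnfrsf17, the least abundant receptor, Tnfsf13b had the higher RPKM in XXF F4 (1.929 against 1.558), XYF F9 (7.54 against 6.47) and XYM 9 (12.4 against 4.199), and Tnfsf13 in XXF F4 (1.849). These ratios are descriptions and were not tested.

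**Figure D3:**
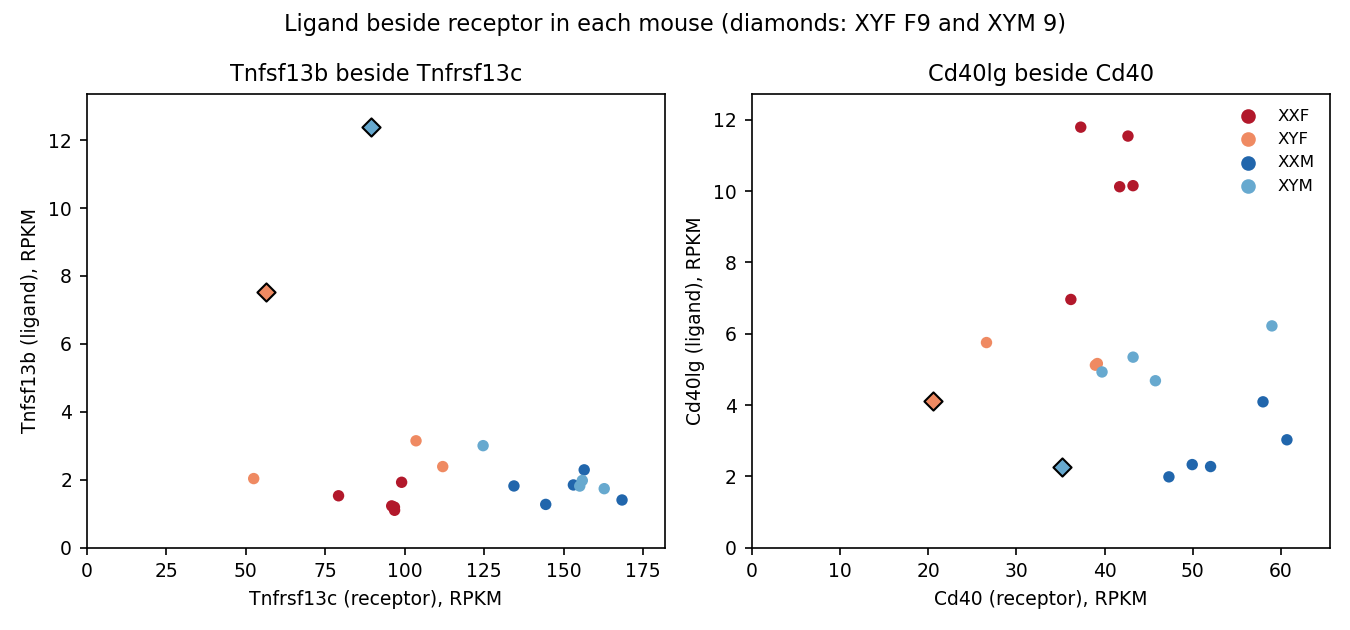
RPKM of the ligand on the vertical axis and of its receptor on the horizontal axis in each mouse, by group, with both axes starting at 0 and diamonds for XYF F9 and XYM 9. In the panel of Cd40lg and Cd40, XXF mice sit at the top and XXM mice at the lower right, with Cd40lg at 19.2% to 31.6% and 4.21% to 7.06% of Cd40.

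Tnfrsf13c, Cd40, Traf3 and Tnfrsf13b were set against B cell markers. The 10 markers summed to an RPKM of 2720 to 3310 in XXF, 1480 to 2910 in XYF, 4010 to 4770 in XXM and 2520 to 4230 in XYM mice. Of the 10, 8 were called higher in males over both complements, against 7.32% of all genes called in either direction, and 9 were called higher in XYM than in XYF mice, against 15.8%. Between XXM and XXF mice, where Tnfrsf13c was called, 1 of 10 was called higher, against 4.22%. Medians of the 10 were 0.663, 0.828 and 0.491 in these comparisons, against 0.0174, 0.0167 and -0.00719 over all genes. The counts of called markers without XYF F9 and XYM 9 were 6, 8 and 1, against 9.09%, 22.1% and 4.74% of all genes. In XXF against XYF mice 2 of 10 were called higher, against 1.38%, with a median of 0.5 (0.062 over all genes). In XX against XY mice over both gonadal sexes it was 1, against 1.72%, with a median of 0.395 (0.0273). Without XYF F9 and XYM 9 these counts were 1 and 0, against 0.895% and 1.3%. A marker score, the mean of centred log2 values of the listed markers, was compared with each member over the 19 mice, 42 relations in all with p-values adjusted over them. Tnfrsf13c followed the B cell score most closely (r = 0.959, rho = 0.854, adjusted permutation p = 0.00014 and 0.00056). For Cd40 the values were r = 0.931 and rho = 0.909 (0.00014 and 0.00042), for Traf3 0.853 and 0.818 (0.00014 and 0.000735), and for Tnfrsf13b 0.804 and 0.788 (0.00014 and 0.00119). On deviations from the group means r was 0.937, 0.853, 0.745 and 0.65, and without the 2 mice farthest from the median score (XYF F6 and F9) it was 0.92, 0.833, 0.746 and 0.675. The score itself was higher in males other than XYM 9 (0.151 or more) than in females (0.058 or less). Within females r was 0.929, 0.966, 0.845 and 0.83 for Tnfrsf13c, Cd40, Traf3 and Tnfrsf13b, and within males 0.888, 0.758, 0.346 and 0.32, so for Traf3 and Tnfrsf13b the relation was weak within males. The unadjusted p for r was 1e-05 for Tnfrsf13c, Cd40 and Traf3, the smallest the resampling can give, and 2e-05 for Tnfrsf13b. The part of B cell content in the receptor differences was not tested.

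Tnfrsf17 ran the other way. Its correlation with the B cell score was negative (r = -0.573, rho = -0.575, adjusted permutation p = 0.0288 and 0.0307), and weaker without XYF F6 and F9 (-0.36) and on deviations from the group means (-0.319), so the relation rests on those mice and on the groups. With the plasma cell score r was 0.419 and rho 0.277 (adjusted permutation p = 0.131 and 0.292). It was 0.65 on deviations from the group means, which passed the threshold (adjusted permutation p = 0.0367), and 0.11 without XXF F4 and XYM 13. Within females r was 0.832 and within males 0.32, and on deviations without XYF F9 and XYM 9 it was 0.743. With the neutrophil score, whose marker sums were also higher in XYF than in XXF mice, r was 0.446 and rho 0.64 (adjusted permutation p = 0.112 and 0.0129). Leaving out XYF F9 and XYM 9 gave r = 0.64 (adjusted permutation p = 0.0204), and on deviations from the group means r was 0.165. Of 9 neutrophil markers, 6 were called lower in XYM than in XYF mice, though only without XYF F9 and XYM 9, where 22.1% of all genes were called. The part of neutrophil content in the Tnfrsf17 differences was not tested.

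The ligands were set against neutrophil and myeloid markers. Tnfsf13b followed the neutrophil score (r = 0.931, rho = 0.751, adjusted permutation p = 0.00018 and 0.00204), with r = 0.962 on deviations from the group means and 0.675 without XYF F9 and XYM 9. With the myeloid score its r was 0.645 (rho = 0.46, adjusted permutation p = 0.0218 and 0.111), stronger on deviations (0.687, adjusted permutation p = 0.00651), and no longer past the threshold without XYF F7 and F9 (0.485) or with the median of the markers (0.323). Tnfsf13 followed the myeloid score (r = 0.737, rho = 0.714, adjusted permutation p = 0.00145 and 0.0042), with r = 0.763 on deviations and 0.607 without XYF F7 and F9, and with the neutrophil score its r was 0.344 (rho = 0.186, adjusted permutation p = 0.196 and 0.467). Its r was 0.546 with the erythroid score (rho = 0.514, adjusted permutation p = 0.0387 and 0.0647) and -0.485 with the B cell score (rho = -0.589, adjusted permutation p = 0.0778 and 0.0284). On deviations from the group means these were 0.189 and -0.0759, and without the 2 mice farthest from each median score 0.325 and -0.691. The T cell score was 0.445 or more in females other than XYF F9 and -0.00887 or less in males. Over the 19 mice r was -0.41 for Tnfsf13b, -0.248 for Cd40 and -0.428 for Tnfrsf13c (adjusted permutation p = 0.133, 0.364 and 0.127). On deviations from the group means r was -0.834, 0.801 and 0.684 in the same order (adjusted permutation p = 0.0283, 0.00651 and 0.0518). The values on deviations rest in part on XYF F9 and XYM 9, without which they were -0.304, 0.566 and 0.34. Within females r was -0.873, 0.855 and 0.651, and within males -0.421, 0.238 and 0.485. Cd40 and Tnfrsf13c fell with the neutrophil score (r = -0.657 and -0.553, adjusted permutation p = 0.0166 and 0.0352). They also fell with the myeloid score (r = -0.685 and -0.577, adjusted permutation p = 0.00676 and 0.0288). Without the 2 mice farthest from each median score r was -0.414 and -0.368, and -0.503 and -0.438, none past the threshold. The part of neutrophil or myeloid content in the ligand and receptor levels was not tested.

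Erythroid RNA also varied between groups. The 7 markers summed to an RPKM of 12800 to 28800 in XXF, 15800 to 48000 in XYF, 7310 to 14500 in XXM and 1590 to 14600 in XYM mice, and all 7 were called lower in XYM than in XYF mice, against 15.8% of all genes, and in males over both complements, against 7.32%. Tnfrsf13c was lower in mice with a high erythroid score (r = -0.856, rho = -0.833, adjusted permutation p = 0.00014 and 0.00056). Without XYM 12 and XYM 16, farthest from the median score, r was -0.89, and on deviations from the group means it was -0.869. For Traf3, Tnfrsf13b and Cd40 r was -0.823, -0.77 and -0.69 and rho -0.788, -0.721 and -0.74 (adjusted permutation p = 0.00014, 0.00063 and 0.00479 for r, and 0.00084, 0.0028 and 0.00268 for rho), and without the same 2 mice r was -0.787, -0.665 and -0.863. For Traf3, Tnfrsf13b and Cd40 on deviations r was -0.594, -0.55 and -0.7. Within females it was -0.778, -0.747 and -0.889, and within males -0.671, -0.56 and -0.175. The part of erythroid RNA in these values was not tested.

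**Figure D4:**
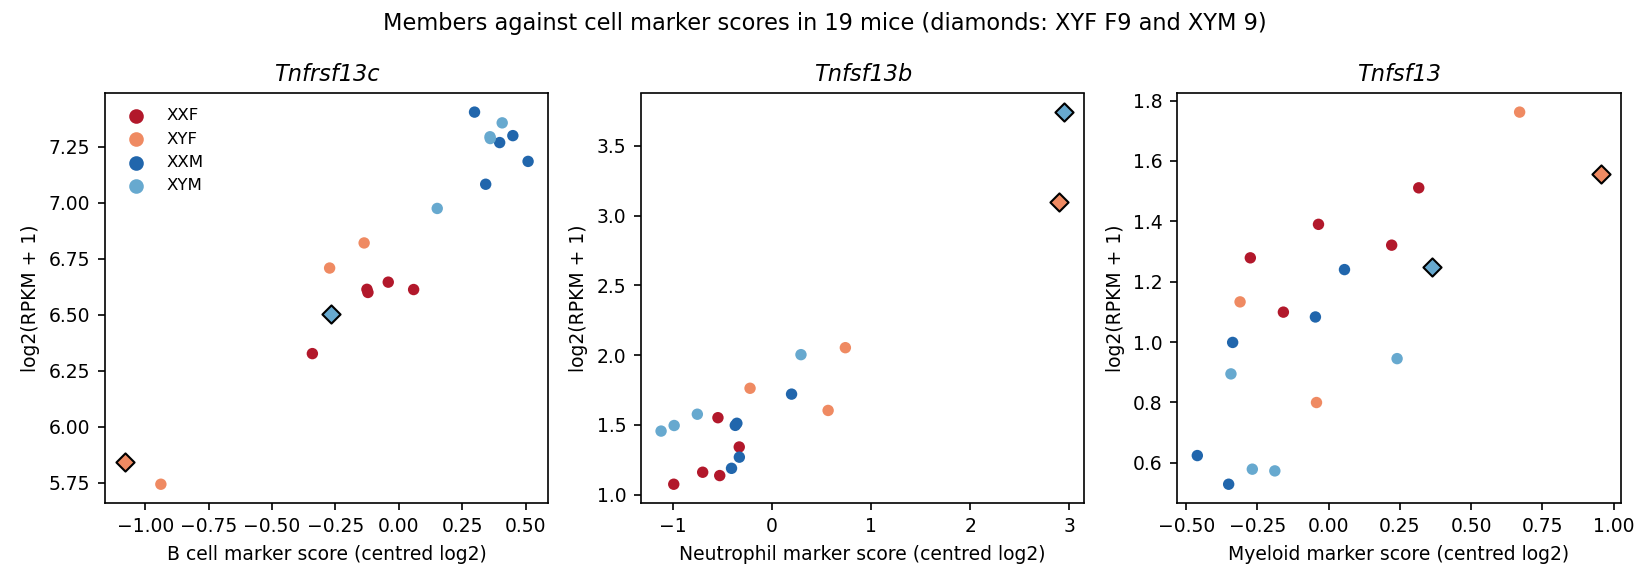
Log2(RPKM + 1) of 3 members against the marker score they followed most closely, for 19 mice by group, with diamonds for XYF F9 and XYM 9. Tnfrsf13c rises along the B cell score (r = 0.959), Tnfsf13b along the neutrophil score (r = 0.931, and 0.675 without the diamonds), and Tnfsf13 along the myeloid score (r = 0.737).

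For each member the 3 tested genes with the highest r over 19 mice were taken as most like it. They were Ebf1, Fcrl1 and Blnk for Tnfrsf13c (r = 0.962, 0.962 and 0.957), and Pxdc1, H2-Aa and Gem for Cd40 (0.976, 0.974 and 0.968). For Traf3 they were Whrn, Pxk and Nfatc1 (0.982, 0.977 and 0.973), and for Tnfrsf13b Adam19, Marchf1 and Zhx1 (0.968, 0.967 and 0.967). On deviations from the group means r for these 12 pairs lay between 0.893 and 0.96. For Tnfsf13b they were 4930438A08Rik, C1rl and Chil3 (0.972, 0.969 and 0.969, and 0.864, 0.921 and 0.833 without XYF F9 and XYM 9). Tnfsf13 had weaker likenesses, to Rab5c, Gm5637 and Septin9 (0.871, 0.862 and 0.836), and after Jchain, Tnfrsf17 was most like Prdx4 and Fabp4 (0.827 and 0.82). Among the members themselves, Tnfrsf13b and Traf3 were the most alike pair (r = 0.948, and 0.895 on deviations).

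Downstream genes were taken from lists. Of 8 genes of the TRAF3 complex and the non-canonical NF-kB pathway, 1 was called, and only between XYM and XYF mice, where 15.8% of all genes were called: Birc3, which encodes the ubiquitin ligase cIAP2 of that complex (0.70, SE 0.143, adjusted p = 0.00408 from limma). Without XYF F9 and XYM 9, where 22.1% of all genes were called, there were 2, with Map3k14 added (0.65, adjusted p = 0.0291). The median log2 difference of the 8 in that comparison, with every mouse included, was 0.43, against 0.0167 over all genes.

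Of 12 genes of the canonical NF-kB pathway and other TRAFs, 2 were called higher in XYM than in XYF mice, against 15.8% of all genes called in either direction. Without XYF F9 and XYM 9 there were 4, against 22.1%, with Nfkb1 (0.61) and Nfkbie (0.61) added. Rel, which encodes the NF-kB subunit c-Rel, had a mean RPKM of 20.3 (SD 10.4, n = 5) in XYM and 6.09 (SD 1.87, n = 4) in XYF mice (log2 difference 1.47, SE 0.336, adjusted p = 0.00653 from limma). Tnfaip3, which encodes the NF-kB inhibitor A20, differed by 0.60 (SE 0.14, adjusted p = 0.00686) but was under 1.5-fold with median ratio rescaling (0.55), quantile normalization (0.58) and array weights (0.57). It was also under 1.5-fold without XYF F6 (0.51), XYF F9 (0.55), XYM 12 (0.56), XYM 15 (0.58) or XYM 16 (0.58). Rel was also called higher in males over both complements (0.69, adjusted p = 0.033), but not without XYM 12 (0.58, adjusted p = 0.0613), and between XXM and XXF mice its difference was -0.08 (adjusted p = 0.929). The median of the 12 between XYM and XYF mice was 0.489.

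Of 11 survival genes, 1 was called higher and 3 lower in XYM than in XYF mice, against 15.8% of all genes. Without XYF F9 and XYM 9 these were 1 and 4, against 22.1%, with Bcl2a1b (-0.72) added. Bcl2l11, which encodes the pro-apoptotic protein BIM, was higher (0.60, SE 0.125, adjusted p = 0.00424 from limma), though under 1.5-fold with median ratio rescaling (0.55) and quantile normalization (0.56), and without XYF F6 (0.55), XYF F9 (0.57) or XYM 13 (0.56). Bcl2l1, which encodes BCL-XL and is abundant in erythroid cells, was lower (-1.38, SE 0.435, adjusted p = 0.0264), and not called without XYF F6 (-1.13, adjusted p = 0.106). The close copies Bcl2a1a and Bcl2a1d of the anti-apoptotic gene A1 were lower by -0.99 (SE 0.314, adjusted p = 0.0275) and -0.585 (SE 0.259, adjusted p = 0.0931), and reads could be split between such copies. The difference of Bcl2a1d lies at the fold threshold. The Bcl2a1d call was kept in 9 of the 19 fits without 1 mouse. It was lost with no filter (adjusted p = 0.138), the compared groups alone (0.147) and array weights (difference -0.5836). Over both complements Bcl2l1 (-0.87, adjusted p = 0.0379) and Bcl2a1a (-0.68, adjusted p = 0.027) were called lower in males, the latter not without XYF F7 (-0.57) or XYM 9 (-0.58). The median of the 11 was -0.369 between XYM and XYF mice. With XYF F9 and XYM 9 left out there were also calls between XXM and XYM mice, Rel lower (-1.08) and Bcl2l1 higher (0.97) in XXM, against 6.18% of all genes, and calls for the difference between XX effects, Rel (1.65), Tnfaip3 (0.59) and Bcl2l11 (0.625), against 5.51%. Of the 5 partners, 4 were tested, and Cd40lg alone was called in any comparison.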

How the data were processed

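RNA-seq of splenocytes from 19 mice was used, 1 library per mouse. Upstream, the authors used subread (genome mm10) and featureCounts, and deposited log2 RPKM values for 27179 genes. Versions, annotation, strand and multi-overlap settings are unknown here. The labels name a NEBNext Ultra kit and the methods a KAPA stranded kit, and the titles of the 5 XXM libraries carry an extra tag of unknown meaning. No batch is given, so batch and group cannot be told apart. The deposited values equal log2(RPKM + 1) with 0.0001 added, and whole reads were recovered for 21317 of 21317 genes with a read (tolerance 0.02 reads). The RPKM used in the text was computed back from these values.

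limma 3.58.1 (R 4.3.3) fitted 4 group means with a spread that follows mean expression to 14186 genes, with Benjamini-Hochberg adjustment over all of them. A gene was called at an adjusted p under 0.1 and an absolute log2 difference over 0.585 (1.5-fold), the thresholds the authors used with EdgeR, which was not run here. Differences of weakly expressed genes are understated on this scale. Exact permutation tests were two-sided, within the other factor for averages. Correlations used 100000 resamples. The recovery and the limma fit were tested on simulated data. Python 3.11.15, numpy 2.4.6, pandas 2.3.3, scipy 1.17.1, numba 0.67.0 and matplotlib 3.10.9 were used. Positions and promoters came from RefSeq GRCm38.p6, which held the Entrez Gene identifiers of 25275 genes, and exon overlaps from GENCODE.

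The 7 members, 4 pathway lists and 9 marker lists were chosen with earlier results of these data known. Named were all members, each pathway gene called in a comparison, 4 more called between XYM and XYF mice without XYF F9 and XYM 9 (chosen after their values were seen), and the 3 genes most like each member. Settings varied were the pseudocount (0.5 and 0.1), the filter (none, or RPKM 1), median ratio rescaling, quantile normalization, the compared groups alone, no trend, array weights, limma-voom on recovered reads, an adjusted p of 0.05, no fold threshold, and each mouse left out. Leaving out XYF F9 and XYM 9 together, in fits and in some correlations, was added after seeing the data. The labels number the libraries as separate mice but say no more, so p-values measure the spread between these samples.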

Additional observations from a re-analysis of the deposited data

Results flagged for a closer look

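Within each group, the highest and lowest mouse was compared with the rest for 7 members and 9 marker scores, 64 sets of values in all, of which chance would single out about 1 in 20. There were 4 such values, in 3 mice. Tnfsf13b in XYM 9 was at a log2(RPKM + 1) of 3.74, where the other XYM mice lay between 1.455 and 2.003. Tnfrsf13c in XXF F3 was at 6.33, where the other XXF mice lay between 6.60 and 6.65. The neutrophil marker score of XXM 6 was 0.197, against -0.409 to -0.33 in the other XXM mice. For NK cell markers XYM 9 scored -1.45, and XYM mice apart from it scored -0.229 to 0.112.

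The XX effect on Cd40lg differed between females and males by a log2 difference of 1.45 (adjusted p = 0.0877 from limma), with XX higher in females (0.87) and a value of -0.58 in males that was not called. The 8 T cell markers had a median of 0.702 in the same comparison, against 0.0182 over all genes. Of these markers 4 were called, though only without XYF F9 and XYM 9, where 5.51% of all genes were called. The part of T cell content in the Cd40lg difference, which without those mice was 1.56 (adjusted p = 0.00949 from limma), was not tested. The Cd40lg difference was not past the threshold with a pseudocount of 0.1 (adjusted p = 0.116), no filter (0.128), quantile normalization (0.11) or limma-voom (0.118).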

How the results depend on the processing

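The count of members called between XXF and XYF mice was 1, where 196 of 14186 genes were called. It was 0 with the compared groups alone (88 genes called in all), with an adjusted p of 0.05 (103) and without XYF F9 and XYM 9 (127). When each mouse was left out it was 0 to 2, with 56 to 850 genes called. Between XX and XY mice over both gonadal sexes it was 0, with 244 genes called. It was 1 with a pseudocount of 0.1 (413 genes), and 0 to 1 without single mice (148 to 518 genes). Between males and females over both complements it was 2, with 1039 genes called. It was 3 with pseudocounts of 0.5 and 0.1 and with limma-voom, where 1287, 1700 and 1714 genes were called. With no fold threshold it was 5, where 5468 of 14186 genes were called. For the difference between the XX effects it was 1 with array weights (1911 genes called in all) and 1 without XYF F9 and XYM 9 (782 genes). Without single mice it was 0 to 2, with 0 to 1695 genes called. It stayed at 1 between XXM and XXF mice and at 0 between XXM and XYM mice in every setting run, and lay between 4 and 6 between XYM and XYF mice. The 6 came with no fold threshold, where 5661 of 14186 genes were called. Relations of members with marker scores past an adjusted p of 0.05 numbered 17, and 12 to 16 under the 3 alternatives.

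Of 1197 values without single mice, 1107 kept their direction and side of the threshold and 31 changed sign. Of 793 values under the other settings, 757 kept both and 4 changed sign. Tnfsf13 between XXF and XYF mice was -0.03682 under median ratio rescaling. Under array weights Tnfrsf17 between XXM and XYM mice was -0.0518, and the difference between XX effects was 0.01023 for Tnfsf13 and -0.05527 for Cd40. Without single mice, Tnfsf13 ranged from -0.16 to 0.16 in females, -0.03919 to 0.15 in males, -0.05819 to 0.10 between XX and XY mice and -0.21 to 0.11 for the difference between XX effects. Tnfrsf17 in males ranged from -0.02681 to 0.23. Tnfsf13b ranged from -0.50 to 0.25 between XYM and XYF mice, from -0.16 to 0.22 between males and females and from -0.68 to 0.06355 for the difference between XX effects, where Tnfrsf13c ranged from -0.06235 to 0.30 and Cd40 from -0.05955 to 0.24. The cause was not tested.

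The number of all genes called between XXF and XYF mice (196) was 88 with the compared groups alone, 103 at an adjusted p of 0.05, 345 with no fold threshold and 127 without XYF F9 and XYM 9. Between XXM and XYM mice (420) it was 211 with no filter, 121 with the groups alone, 1027 with array weights, 85 at 0.05, 1115 with no fold threshold and 876 without those 2 mice. Between XX and XY mice (244) it was 413 with a pseudocount of 0.1, 391 with limma-voom and 983 with no fold threshold. With no fold threshold it was 1348 between XXM and XXF mice (598) and 5661 between XYM and XYF mice (2237). Between males and females (1039) it was 1700 with a pseudocount of 0.1, 1714 with limma-voom and 5468 with no fold threshold. For the difference between XX effects (12) it was 6 with a pseudocount of 0.1, 6 with no filter, 1911 with array weights, 4 with limma-voom, 0 at 0.05 and 782 without those 2 mice. Under median ratio rescaling 36.3% of the calls between XXF and XYF mice were higher, against 48.5%. When each mouse was left out, the numbers of all genes called in these 7 comparisons ranged from 56 to 850, 51 to 1214, 148 to 518, 499 to 627, 1395 to 2958, 837 to 1253 and 0 to 1695. No paired analysis was run. Some numbers occur in a female and a male group, apart from the prefix F (as in XYF F9 and XYM 9), and nothing in the labels links such mice. Tnfsf13 and Tnfrsf17 rest on few reads.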
